A study of Mus musculus with 6 samples.

Results

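The genes described here encode the motors, scaffolds and enzymes that build the mitotic spindle, condense and separate the chromosomes and divide the cell. They are the 44 records, of 34745 in the deposited table, whose gene name equals an entry of a list of 12 mitotic kinesins, 14 spindle assembly genes, 6 cytokinesis genes, 8 chromosome condensation genes and 4 genes of chromatid separation and mitotic protein degradation. Each entry matched 1 record, and all 44 passed the filter on low counts. RNA was sequenced from liver, with hepatocyte given as the cell type, of C57BL/6 mice aged 12 weeks, 48 h after partial hepatectomy (PHx), an operation that removes part of the liver and starts its regrowth. The 3 HKO libraries came from mice named Sox9HKO and the 3 WT libraries from Sox9f/f mice, which carry floxed Sox9 alleles. Every animal had the operation, so that no comparison with resting liver is made. How Sox9 was deleted, in which cells and over which exons is not given in the labels, and neither is whether the libraries of a group are from separate mice. The p-values therefore describe the spread between libraries, which may be technical in part.

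Hepatocytes of the adult liver rarely divide. After PHx they enter the cell cycle nearly in step, replicate their DNA and pass through mitosis, and some become polyploid because cytokinesis fails or is skipped. Most transcripts of this group rise late in the cycle, in G2 and M, when the spindle and the contractile ring are made. Many of these genes are known to be held down in resting cells through a short promoter element, the cell cycle genes homology region (CHR), often found near CCAAT boxes bound by NF-Y.

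The libraries held 16659778 to 21168233 counts. The targeted gene, Sox9 (ENSMUSG00000000567, chromosome 11, 112782224 to 112787760, plus strand), stood at 6.34, 4.30 and 4.78 CPM in HKO 1, 2 and 3 against 6.94, 13.7 and 11.3 CPM in WT 1, 2 and 3. CPM are counts scaled to a common library total with TMM factors. Every HKO value of Sox9 lay below every WT value, with HKO 1 and WT 1 close together (HKO minus WT, log2 fold change -1.05, SE 0.27, adjusted p = 0.0284 by edgeR's quasi-likelihood test). The call was lost without HKO 2, HKO 3, WT 2 or WT 3 (adjusted p = 0.0503, 0.0862, 0.0929 and 0.0975) and with the replicate number as a block (0.0652). Which exons the reads came from is not known, so this checks the labels only in part. HKO 2 stood apart from the other HKO libraries, since the 13 protein-coding mitochondrial genes took 25.9% of its counts against 12.1% to 16.3% in the other 5 libraries. Values without HKO 2 are therefore given beside those with it.

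The mitotic genes were lower in HKO as a near-complete block. Of the 44 genes 36 fell (edgeR quasi-likelihood test, Benjamini-Hochberg adjusted p below 0.05 over the 12556 genes tested) and 8 did not reach the threshold. The number called higher was 0 by edgeR, also 0 at an unadjusted p below 0.05 and 0 by DESeq2 and limma-voom. Over all genes tested 11.2% were called lower and 12.1% higher. The 3 HKO values all lay below the 3 WT values in 41 of the 44 genes, which held for 21.6% of all genes tested. The median log2 fold change of the group was -1.91, beside 0.02 over all genes tested. Summed over the group, the libraries HKO 1, 2 and 3 held 267, 725 and 295 CPM, and WT 1, 2 and 3 held 1647, 1314 and 1382 CPM. The HKO mean was 29.6% of the WT mean, and HKO 2 held more of these transcripts than the other HKO libraries and less than any WT library.

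**Figure D1:**
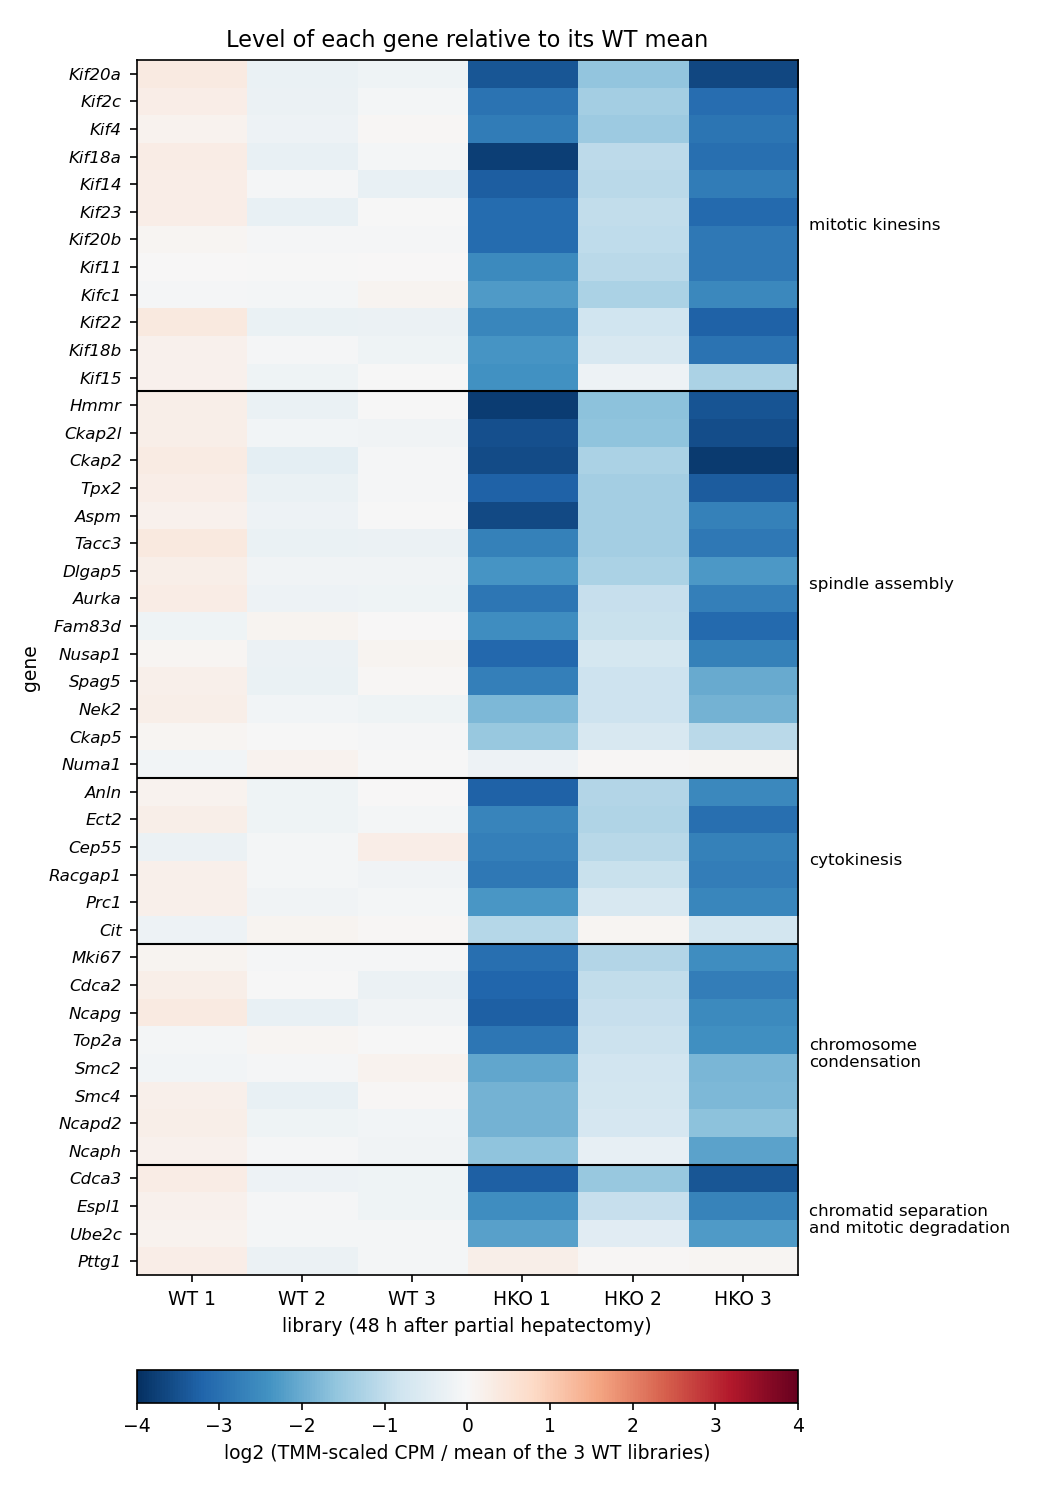
Each row is 1 of the 44 genes and each column 1 library, and the colour gives log2 of the CPM over the mean of the 3 WT libraries, with blue for lower. The HKO columns are blue in nearly every row, more lightly in HKO 2 (median -0.96) than in HKO 1 and HKO 3 (medians -2.74 and -2.71), and the rows of Numa1 and Pttg1 are pale throughout.

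How many genes passed the threshold depended on the libraries present. Without HKO 2 it was 41 of the 44, where 12.2% of all genes tested were called lower. It was 21 without HKO 1, 16 without HKO 3, 20 without WT 1, 22 without WT 2 and 16 without WT 3. The 16 genes that passed in each of the 13 alternatives were the kinesin genes Kif11, Kifc1, Kif4, Kif2c and Kif20a, the spindle genes Tpx2, Dlgap5, Hmmr, Ckap2l, Ckap5, Tacc3, Aspm and Nek2, and Ect2, Mki67 and Cdca3.

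**Figure D2:**
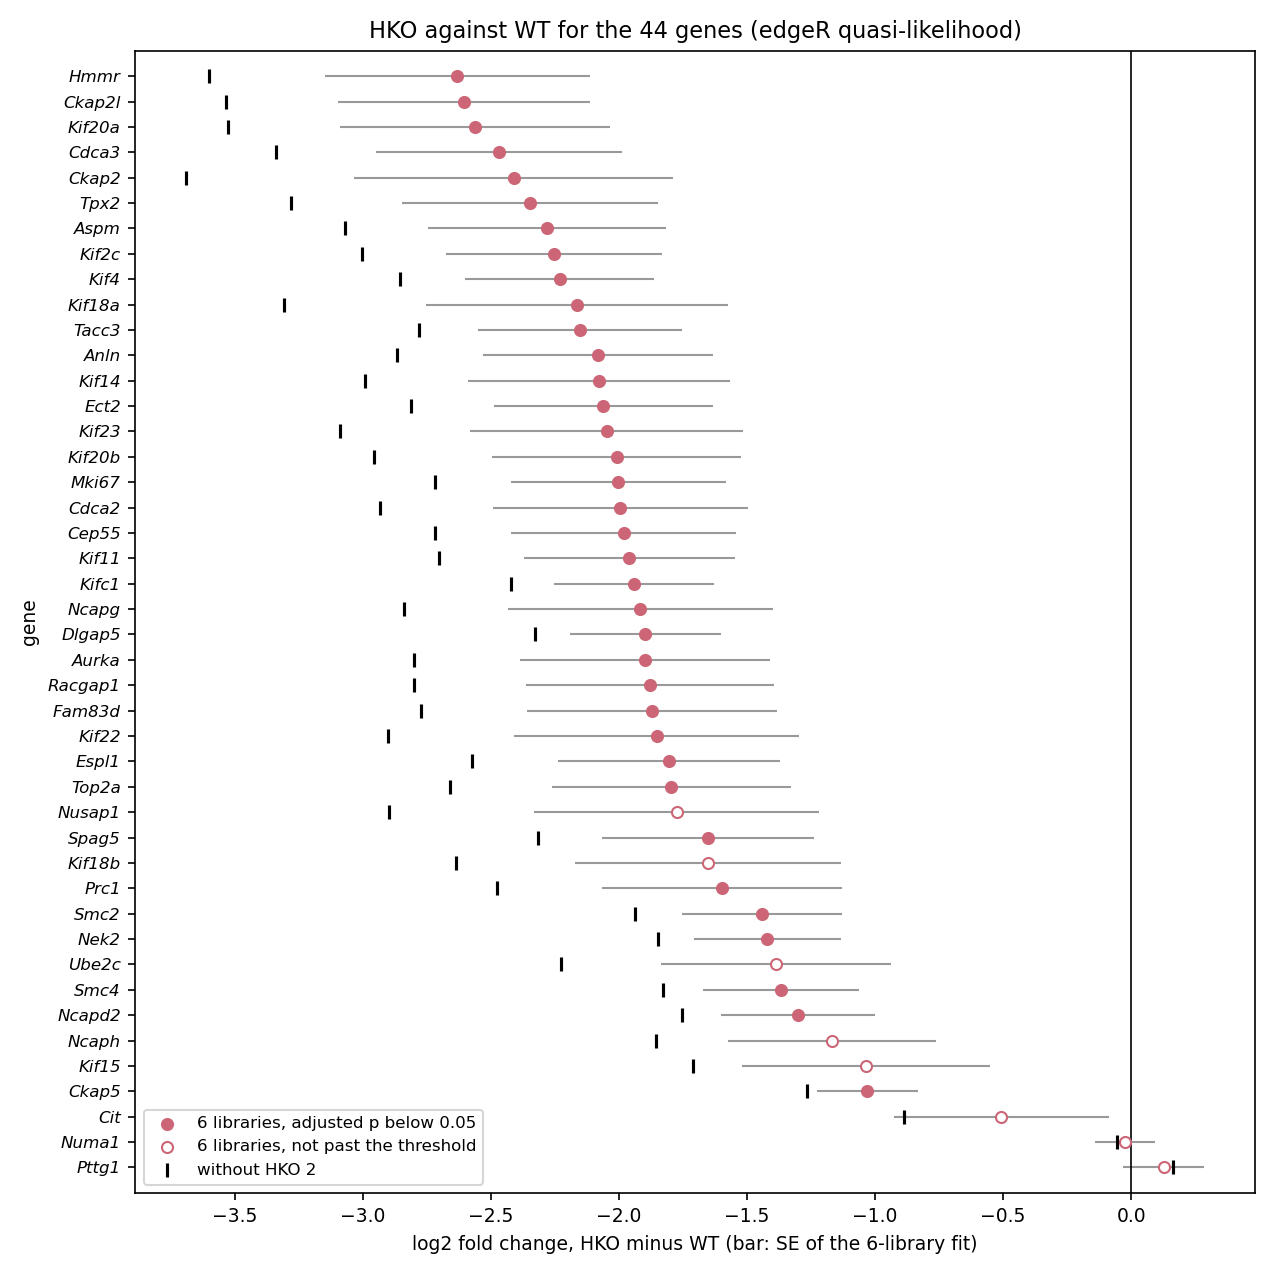
Points give the log2 fold change of HKO minus WT for each gene with its SE, filled where the adjusted p was below 0.05, and black ticks give the value without HKO 2. The points run from -2.63 for Hmmr to 0.13 for Pttg1, and the tick lies to the left of the point in 43 of the 44 genes.

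The promoters of the group share short sequences. RefSeq promoters (GRCm38.p6), from 250 bases before to 50 after the transcription start, were matched by symbol for 39 of the 44 genes, all but Cdca2, Smc4, Dlgap5, Kif20a and Tpx2. The CHR letters TTTGAA, read on both strands, were present in 31 of the 39 (79.5%), beside 20.2% of the 27025 genes with a promoter entry and 14.7% of the 9357 tested genes with one. CCAAT, also on both strands, was present in 27 of the 39 (69.2%), beside 41.1% and 43.3%. Both stood in the same promoter in 26 of the 39 (66.7%), beside 7.97% and 5.96%. The CHR variant TTCGAA was in 1 of the 39 (Top2a, 2.56%, beside 1.80% of all genes and 2.38% of tested genes). The E2F-type letters TTCCCGC were in 1 (Ncapg, 2.56%, beside 5.29% and 9.74%). The motifs were chosen with the expression results known, and a match describes the letters only.

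The CHR letters lay near the start. In 26 of the 39 genes a match lay within the last 60 bases before the start or the 50 after it, which held for 6.36% of all genes. Of the genes that fell, 28 of 31 had a match anywhere in the window, the exceptions being Kif18a, Nek2 and Tacc3. Of those that did not reach the threshold, 3 of 8 had one (Kif15, Kif18b and Ube2c), and Nusap1, Ncaph, Numa1, Cit and Pttg1 had none. In 7 of the 39 genes (Cdca3, Cit, Kif14, Kif2c, Kif4, Ncapd2 and Pttg1) the RefSeq start lay more than 100 bases inside the gene as the deposited table places it, so the window is not the one before the table's start.

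To show how the letters are placed, the 130 bases before the start follow, 5′ to 3′, for the gene with the largest fall in each role among those with CHR letters in the last 60 bases, and for Numa1, a spindle gene whose HKO and WT values overlapped. Cit and Pttg1, whose values also overlapped, are left out because their RefSeq starts lay more than 100 bases inside the deposited gene. The genes that fell were picked for holding CHR letters, so the stretches are examples and do not compare them with Numa1. Capitals mark TTTGAA or its reverse complement TTCAAA, and CCAAT or its reverse complement ATTGG.
Kif11, chr19:37376252-37376381, plus strand: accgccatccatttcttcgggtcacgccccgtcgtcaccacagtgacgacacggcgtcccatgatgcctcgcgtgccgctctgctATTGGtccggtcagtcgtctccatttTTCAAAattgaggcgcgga
Ckap2l, chr2:129297213-129297342, minus strand: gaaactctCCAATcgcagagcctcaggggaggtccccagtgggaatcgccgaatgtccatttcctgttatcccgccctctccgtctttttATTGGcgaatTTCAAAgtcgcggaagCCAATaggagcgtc
Cep55, chr19:38054911-38055040, plus strand: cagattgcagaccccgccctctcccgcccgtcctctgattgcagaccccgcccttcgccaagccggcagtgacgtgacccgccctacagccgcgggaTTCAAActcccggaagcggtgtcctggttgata
Ncapg, chr5:45669795-45669924, plus strand: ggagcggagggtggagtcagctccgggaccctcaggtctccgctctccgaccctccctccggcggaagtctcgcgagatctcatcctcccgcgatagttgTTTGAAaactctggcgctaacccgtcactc
Espl1, chr15:102296163-102296292, plus strand: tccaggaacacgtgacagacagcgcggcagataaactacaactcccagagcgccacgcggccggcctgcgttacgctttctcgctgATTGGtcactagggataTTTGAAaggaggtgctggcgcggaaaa
Numa1, chr7:101969713-101969842, plus strand: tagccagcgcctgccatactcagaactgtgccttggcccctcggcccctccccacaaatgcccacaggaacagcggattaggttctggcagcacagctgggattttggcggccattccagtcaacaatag
Kif11, Ckap2l, Cep55, Ncapg and Espl1 each hold 1 CHR match close to the start. Kif11 and Espl1 also hold 1 CCAAT match just upstream of it, and Ckap2l holds 3, of which 1 lies between the CHR match and the start. Numa1 holds neither set of letters in this stretch.

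**Figure D3:**
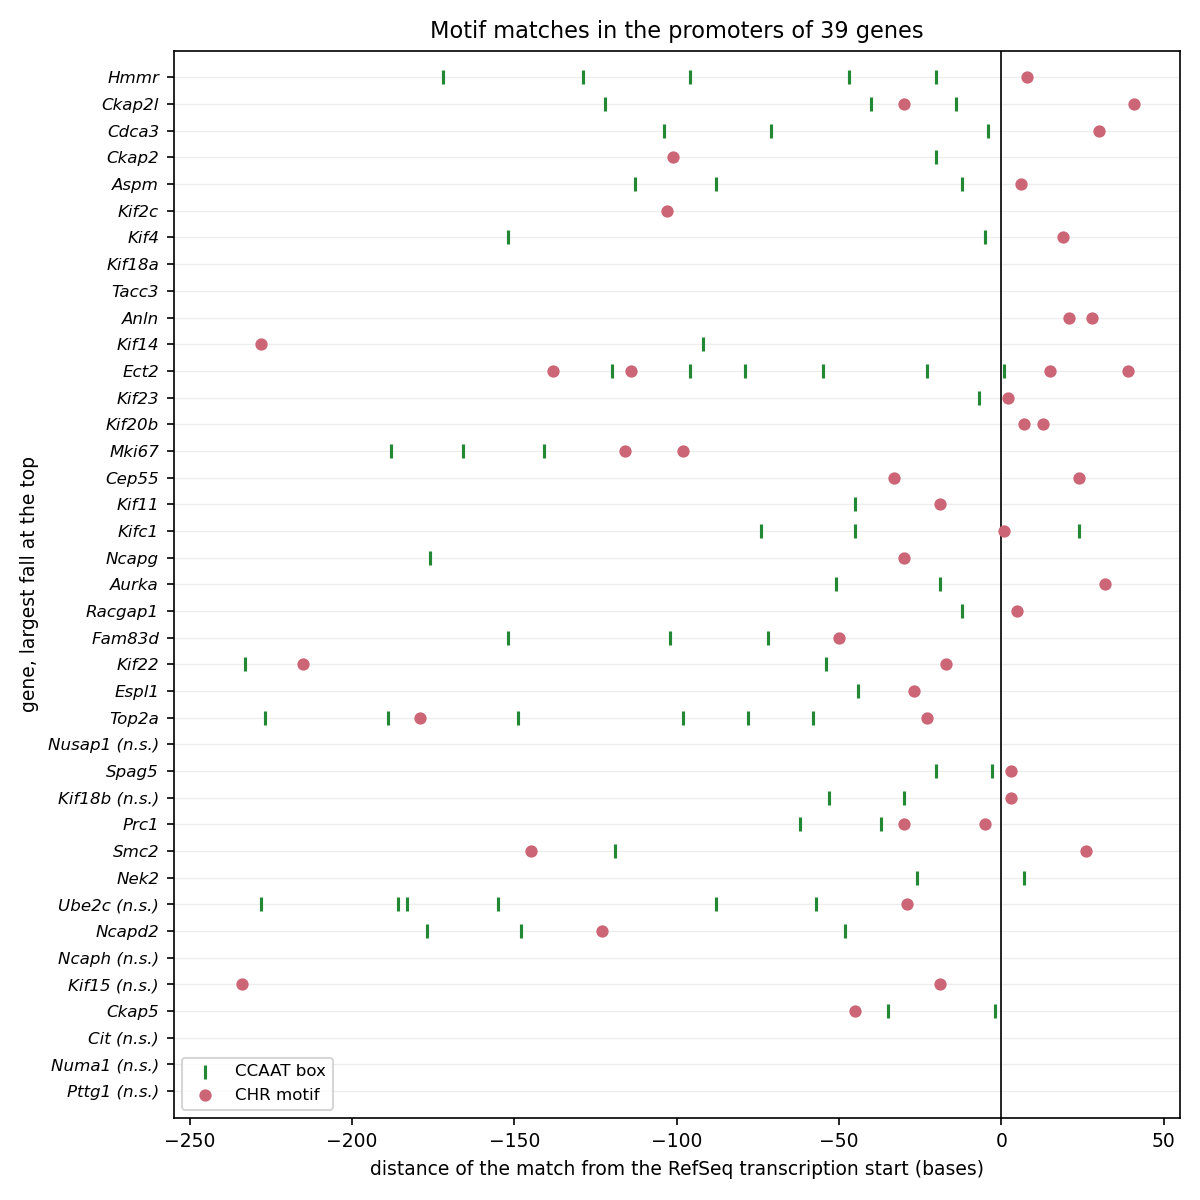
Each row is 1 of the 39 genes with a RefSeq promoter, with the largest fall at the top, and marks give the distance of each CHR match (red points) and CCAAT match (green ticks) from the transcription start in bases, over both annotated starts for Cep55, Ect2 and Prc1. Red points gather around the start, in 26 genes within 60 bases before it or later, and 7 rows are empty (Kif18a, Tacc3, Nusap1, Ncaph, Cit, Numa1 and Pttg1).

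The motors of the spindle, the mitotic kinesins, fell in 10 of 12 genes, with a median log2 fold change of -2.03. Kif20a (ENSMUSG00000003779, chromosome 18, 34624624 to 34633265, plus strand), whose motor carries the chromosomal passenger complex to the central spindle, stood at 8.97, 32.2 and 7.56 CPM in HKO 1, 2 and 3 against 122, 80.0 and 84.1 CPM in WT 1, 2 and 3. The highest HKO value, that of HKO 2, was below the lowest WT value, and the HKO mean was 17.1% of the WT mean (16.3 ± 13.8 against 95.3 ± 23.0 CPM, SD, n = 3; edgeR log2 fold change -2.56, SE 0.53, adjusted p = 0.0122). Of Kif20a's exons 29.3% overlap Cdc23 on the opposite strand, whose own mean level was 9.28 CPM for HKO against 15.4 CPM for WT, and reads of the overlap cannot be told apart. Without HKO 2 the log2 fold change was -3.53 for Kif20a.

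Kif11 (ENSMUSG00000012443, chromosome 19, 37376403 to 37421859, plus strand), the bipolar motor that pushes the spindle poles apart, stood at 5.43, 15.0 and 4.37 CPM in HKO against 32.1, 31.3 and 32.4 CPM in WT (log2 fold change -1.96, SE 0.41, adjusted p = 0.0133). Kif2c, a microtubule depolymerase that corrects faulty attachments at the centromere, stood at 3.01, 8.96 and 2.78 CPM in HKO against 27.6, 19.8 and 22.2 CPM in WT (log2 fold change -2.25, SE 0.42, adjusted p = 0.00867). In both genes the groups were well apart, HKO 1 and HKO 3 were alike, and HKO 2 held 3.06 and 3.09 times their mean. The chromokinesin genes Kif4 and Kif22, whose motors act on chromosome arms, had log2 fold changes of -2.23 and -1.85, and Kifc1, a minus-end motor that gathers spindle poles, -1.94 with the smallest adjusted p among the kinesins (0.00474). Kif18a, which damps the movement of aligned chromosomes, had -2.16. For the central spindle and midbody motors Kif14, Kif20b and Kif23 it was -2.08, -2.01 and -2.05. Kif22 was the gene nearest the threshold among those called (adjusted p = 0.0472), and Kif22, Kif18a, Kif14, Kif20b and Kif23 missed it when any single library except HKO 2 was removed (adjusted p up to 0.123, 0.0963, 0.0726, 0.0682 and 0.0861). With HKO 2 removed the log2 fold changes were -2.70, -3.0, -2.85 and -2.90 for Kif11, Kif2c, Kif4 and Kif22 and -3.31, -2.99, -2.96 and -3.09 for Kif18a, Kif14, Kif20b and Kif23.

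A pair of kinesin genes did not reach the threshold. Kif18b, a motor of astral microtubules, stood at 1.5, 5.0 and 1.0 CPM in HKO against 8.78, 7.53 and 6.96 CPM in WT (log2 fold change -1.65, SE 0.52, adjusted p = 0.0545). Kif15, which can share the work of Kif11 in keeping the spindle bipolar, stood at 0.591, 2.79 and 1.32 CPM in HKO against 3.61, 2.81 and 3.17 CPM in WT (log2 fold change -1.04, SE 0.49, adjusted p = 0.157). The groups did not overlap in either, but HKO 2 came close to WT in Kif15, and without HKO 2 both genes passed (log2 fold changes -2.63 and -1.71 for Kif18b and Kif15, adjusted p = 0.000373 and 0.0121).

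Spindle assembly genes fell in 12 of 14, with a median log2 fold change of -1.90. Hmmr (ENSMUSG00000020330, chromosome 11, 40701395 to 40733422, minus strand), which encodes a microtubule-binding protein of the spindle pole, had the largest fall of the 44 genes. It stood at 4.51, 20.3 and 5.79 CPM in HKO against 74.2, 52.1 and 61.9 CPM in WT, so that the HKO mean was 16.3% of the WT mean (log2 fold change -2.63, SE 0.52, adjusted p = 0.0104). Tpx2, whose protein brings the kinase Aurora A to the spindle and activates it, stood at 5.96, 22.0 and 5.65 CPM in HKO against 67.7, 47.4 and 54.5 CPM in WT (log2 fold change -2.35, SE 0.50, adjusted p = 0.0140). The groups were far apart in both genes. Aurka, the gene of Aurora A, fell by 1.90 on the log2 scale. HKO 2 again narrowed the gap, and the log2 fold changes without it were -3.60, -3.28 and -2.80 for Hmmr, Tpx2 and Aurka.

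Among the other spindle genes, Ckap2l and Ckap2, which encode spindle-bound proteins, had log2 fold changes of -2.60 and -2.41. Aspm, which focuses microtubule minus ends at the poles, had -2.28, and Tacc3, which cross-links kinetochore fibres, -2.15. Dlgap5, which stabilizes those fibres, had -1.90 with the smallest adjusted p of the 44 (0.00424). For Fam83d, Spag5 (astrin) and Nek2, a kinase of centrosome separation, it was -1.87, -1.65 and -1.42. Aurka, Ckap2 and Fam83d missed the threshold when any single library except HKO 2 was removed (adjusted p up to 0.0751, 0.0795 and 0.0897), and Spag5 without HKO 3, WT 1 or WT 3 (up to 0.0817). Removal of HKO 2 gave -3.54, -3.69, -3.07 and -2.78 for Ckap2l, Ckap2, Aspm and Tacc3 and -2.77 and -2.32 for Fam83d and Spag5.

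Ckap5 (ENSMUSG00000040549, chromosome 2, 91526762 to 91620664, plus strand), a microtubule polymerase that also works outside mitosis, had the smallest fall among the genes called. It stood at 15.0, 27.2 and 20.3 CPM in HKO against 44.4, 42.1 and 40.9 CPM in WT (log2 fold change -1.03, SE 0.20, adjusted p = 0.00947), and the WT values lay closer together than the HKO values. Nusap1, which bundles microtubules near chromosomes, stood at 2.74, 15.1 and 3.74 CPM in HKO against 25.8, 20.7 and 26.4 CPM in WT (log2 fold change -1.77, SE 0.56, adjusted p = 0.0542). HKO 2 held 4.65 times the mean of the other HKO libraries in Nusap1, and without it the log2 fold change was -2.90 for Nusap1 (adjusted p = 8.73e-05).

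Cytokinesis genes fell in 5 of 6, with a median log2 fold change of -1.93. Ect2 (ENSMUSG00000027699, chromosome 3, 27097222 to 27153878, minus strand), the exchange factor that activates RhoA where the contractile ring forms, stood at 7.95, 21.7 and 6.20 CPM in HKO against 57.9, 44.3 and 46.6 CPM in WT (log2 fold change -2.06, SE 0.43, adjusted p = 0.0127). Prc1, which cross-links the antiparallel microtubules of the central spindle, stood at 6.77, 21.9 and 5.56 CPM in HKO against 39.4, 30.9 and 32.4 CPM in WT (log2 fold change -1.60, SE 0.47, adjusted p = 0.0439). Racgap1, the partner of Kif23 in centralspindlin, stood at 4.67, 18.0 and 4.97 CPM in HKO against 38.8, 31.8 and 30.3 CPM in WT (log2 fold change -1.88, SE 0.48, adjusted p = 0.0281). All 3 genes had WT 1 highest and HKO 2 between the other HKO libraries and WT. Anln, a scaffold of the ring, had a log2 fold change of -2.08, and Cep55, which brings the abscission machinery to the midbody, -1.98. Prc1 and Racgap1 missed the threshold when any single library except HKO 2 was removed (adjusted p up to 0.114 and 0.0735), Anln without HKO 3 or WT 3 (up to 0.0517) and Cep55 without HKO 1, HKO 3 or WT 3 (up to 0.0690). The log2 fold changes without HKO 2 were -2.81, -2.47, -2.80, -2.87 and -2.72 for Ect2, Prc1, Racgap1, Anln and Cep55.

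Condensation genes fell in 7 of 8, with a median log2 fold change of -1.62. Mki67 (ENSMUSG00000031004, chromosome 7, 135689788 to 135716379, minus strand), whose protein coats mitotic chromosomes and is a common marker of cycling cells, stood at 17.7, 64.0 and 25.7 CPM in HKO against 154, 137 and 138 CPM in WT, the HKO mean being 25.0% of the WT mean (log2 fold change -2.0, SE 0.42, adjusted p = 0.0131). Top2a, the topoisomerase that untangles sister chromatids, stood at 10.2, 41.8 and 13.7 CPM in HKO against 72.1, 79.8 and 74.9 CPM in WT (log2 fold change -1.79, SE 0.47, adjusted p = 0.0289). Smc4, an ATPase of the condensin core, stood at 17.6, 39 and 18.8 CPM in HKO against 74.6, 52.6 and 67.0 CPM in WT (log2 fold change -1.37, SE 0.30, adjusted p = 0.0167). No HKO value reached the WT range in these genes, and HKO 2 held 2.95, 3.50 and 2.14 times the mean of HKO 1 and HKO 3. Cdca2, which brings a phosphatase to chromatin at mitotic exit, had a log2 fold change of -2.0. Top2a and Cdca2 missed the threshold when any single library except HKO 2 was removed (adjusted p up to 0.0833 and 0.0720), and Smc4 without HKO 3 or WT 3 (up to 0.0602). Without HKO 2 the values were -2.72, -2.66 and -2.93 for Mki67, Top2a and Cdca2.

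The log2 fold changes of the condensin genes in the group ranged from -1.92 to -1.17. Smc2, the partner ATPase of Smc4, and the condensin I genes Ncapd2 and Ncapg had log2 fold changes of -1.44, -1.30 and -1.92. Ncapg missed the threshold when any single library except HKO 2 was removed (adjusted p up to 0.0959), Smc2 without HKO 3 or WT 3 (up to 0.0601) and Ncapd2 without HKO 3, WT 1 or WT 3 (up to 0.0625). Ncaph, the kleisin that closes the condensin I ring, stood at 3.92, 9.42 and 2.69 CPM in HKO against 13.3, 11.6 and 10.9 CPM in WT (log2 fold change -1.17, SE 0.41, adjusted p = 0.0737). With HKO 2 removed the log2 fold changes were -2.84 and -1.85 for Ncapg and Ncaph (adjusted p = 0.000447 and 0.000772). Of the 3 genes particular to condensin II, Ncapg2, Ncapd3 and Ncaph2, edgeR called 0, with 2 lower at an unadjusted p below 0.05, 1 lower by DESeq2, 1 by limma-voom and 2 by edgeR without HKO 2. Their log2 fold changes were -1.04, -0.44 and -0.24.

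Ratios of deposited FPKM, a level set per gene length, put the subunits side by side within each library. The ratio of Ncapd2 to Ncapd3 was 0.676, 1.06 and 0.604 in HKO 1, 2 and 3 and 1.73, 1.37 and 1.26 in WT 1, 2 and 3. That of Ncapg to Ncapg2 was 0.358 ± 0.123 in HKO and 0.723 ± 0.0963 in WT (SD), and that of Ncaph to Ncaph2 was 0.138 ± 0.0824 in HKO and 0.270 ± 0.0195 in WT. In all 3 pairs the condensin I subunit was lower relative to its condensin II counterpart in HKO, with no overlap between the groups (exact permutation test, two-sided p = 0.1 each, the smallest that 3 against 3 allows, and 0.15 adjusted over the 9 pairs compared, which were chosen after the values were seen).

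Among the genes of chromatid separation and mitotic degradation, Cdca3 and Espl1 fell and Ube2c and Pttg1 did not reach the threshold. Cdca3 (ENSMUSG00000023505, chromosome 6, 124829547 to 124833701, plus strand), an adaptor of a ubiquitin ligase that acts at mitotic entry, stood at 7.79, 25.8 and 6.88 CPM in HKO against 91.6, 64.4 and 66.5 CPM in WT (log2 fold change -2.47, SE 0.48, adjusted p = 0.0101). Ube2c, the ubiquitin-conjugating enzyme of the anaphase-promoting complex, stood at 7.84, 25.7 and 7.29 CPM in HKO against 39.1, 33.5 and 33.7 CPM in WT (log2 fold change -1.39, SE 0.45, adjusted p = 0.0586, and adjusted p = 7.37e-05 without HKO 2). In both genes all HKO values lay below all WT values, by a wider margin in Cdca3, and without HKO 2 the log2 fold changes were -3.34 and -2.22 for Cdca3 and Ube2c.

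The gene of separase fell, and that of its inhibitor did not reach the threshold. Espl1 (ENSMUSG00000058290, chromosome 15, 102296293 to 102324356, plus strand), which encodes separase, the protease that cleaves cohesin, stood at 1.67, 4.94 and 1.46 CPM in HKO against 10.5, 9.10 and 8.30 CPM in WT (log2 fold change -1.81, SE 0.43, adjusted p = 0.0220). It missed the threshold when any single library except HKO 2 was removed (adjusted p up to 0.0651), and without HKO 2 its log2 fold change was -2.57 for Espl1. Pttg1 (ENSMUSG00000020415, chromosome 11, 43420250 to 43426251, minus strand), which encodes securin, the protein that holds separase inactive, stood at 15.1, 13.3 and 13.7 CPM in HKO against 15.6, 10.8 and 12.1 CPM in WT (log2 fold change 0.13, SE 0.16, adjusted p = 0.595). The Pttg1 values of the groups overlapped, and it was the 1 gene of the 44 with a higher mean in HKO. The FPKM ratio of Espl1 to Pttg1 was 0.0786, 0.265 and 0.0763 in HKO 1, 2 and 3 and 0.481, 0.60 and 0.489 in WT 1, 2 and 3, with no overlap (exact permutation test, two-sided p = 0.1, and 0.15 adjusted over the 9 pairs). The length that the FPKM implies for Pttg1, 4741 bases, was 2.37 times its merged exons in GENCODE M21, the largest multiple of the 44 genes. Whether its counts include reads from outside those exons was not tested.

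Numa1 and Cit also had groups that overlapped. Numa1 (ENSMUSG00000066306, chromosome 7, 101969843 to 102014959, plus strand), a nuclear protein of resting cells that gathers microtubules at the poles in mitosis, stood at 40.0, 47.6 and 48.9 CPM in HKO against 42.6, 50.7 and 45.6 CPM in WT (log2 fold change -0.02, SE 0.12, adjusted p = 0.896). The differences between libraries of a group were larger than the difference between the groups. Cit, a kinase of the midbody, had 7 to 16 counts in each library and stood at 0.376, 0.872 and 0.501 CPM in HKO against 0.722, 0.899 and 0.854 CPM in WT (log2 fold change -0.51, SE 0.42, adjusted p = 0.413). Numa1, Cit and Pttg1 were also the 3 genes that missed the threshold without HKO 2 (adjusted p = 0.797, 0.166 and 0.550).

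**Figure D4:**
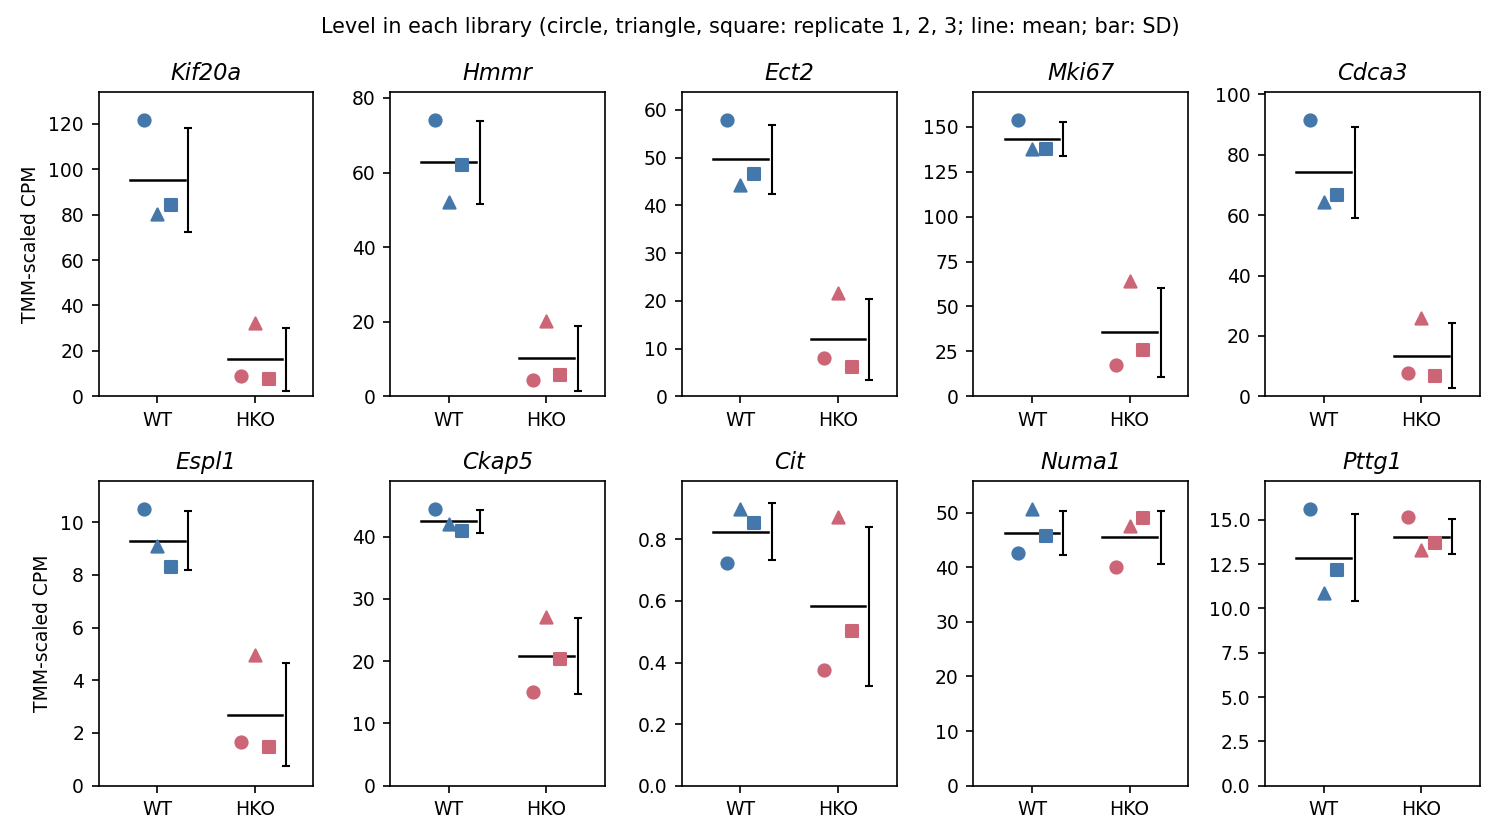
Points give the CPM of 10 genes in each library (blue WT, red HKO, marker shape for the replicate number), lines the means and bars the SD over 3 libraries, on linear axes from 0. Kif20a, Hmmr, Ect2, Mki67, Cdca3, Espl1 and Ckap5 show separate groups with HKO 2 as the highest HKO point, and Cit, Numa1 and Pttg1 show groups that overlap.

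Other partner ratios were compared in the same way. The FPKM ratio of Kif23 to Racgap1, the centralspindlin pair, was 0.920 ± 0.0795 in HKO and 1.07 ± 0.130 in WT (SD, n = 3, exact permutation test, two-sided p = 0.2). That of Smc2 to Smc4 was 0.568 ± 0.0359 in HKO and 0.615 ± 0.117 in WT (exact p = 0.5), and that of Mki67 to Top2a was 1.83 ± 0.184 in HKO and 2.02 ± 0.226 in WT (exact p = 0.5). The groups overlapped in each of these 3 ratios. Aurka to Tpx2 was 1.63, 1.72 and 1.93 in HKO 1, 2 and 3 and 1.32, 1.33 and 1.17 in WT 1, 2 and 3, so the kinase transcript was higher relative to that of its activator in every HKO library (exact p = 0.1, adjusted 0.15). The ninth pair, Ncapg to Ncaph, was 0.444 ± 0.181 in HKO and 0.758 ± 0.115 in WT (exact p = 0.1, adjusted 0.15).

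Per length, Kif20a had the highest deposited FPKM of the 44 genes in WT (25.3 ± 7.46, SD, n = 3). Ckap2, Ckap2l, Cdca3 and Mki67 followed with 15.9 ± 4.78, 15.7 ± 3.10, 15.0 ± 3.87 and 14.2 ± 1.66 FPKM, an order within their spread. Cit was lowest at 0.0411 ± 0.00263 FPKM, and the ratio of the highest to the lowest WT mean was 616. In HKO the highest FPKM was that of Numa1, at rank 15 in WT, and Pttg1 stood at rank 7 in HKO and 28 in WT. The gene lengths implied by the FPKM were 0.433 to 2.37 times the merged exons of GENCODE M21. Per kilobase of those exons, a scale added after the data were seen, Cdca3 ranked above Kif20a in WT. On that scale Pttg1 ranked 1 in HKO and 15 in WT and Numa1 2 and 17, so the HKO order of this pair depends on the length used.

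HKO 2 was the highest HKO library in 42 of the 44 genes, with a median of 3.27 times the mean of HKO 1 and HKO 3. The multiple was largest in Ckap2 (5.36), smallest among called genes in Ckap5 (1.54), and 1.07 in Numa1 and 0.924 in Pttg1. HKO 2 lay below every WT library in 41 genes. Relative to the WT mean, the median of the 12 kinesin genes was -1.07 on the log2 scale in HKO 2, and -2.87 and -2.93 in HKO 1 and HKO 3. Within WT, WT 1 was the highest library in 35 of the 44 genes. How often all genes tested were ordered in these ways was not counted.

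Markers of other liver cells also set HKO 2 apart. The 8 endothelial markers, led by Stab2 and Clec4g, summed to 444 CPM in HKO 2. They summed to 152 and 181 CPM in HKO 1 and HKO 3 and 99.2 to 144 CPM in WT. Of these markers 1 rose by edgeR and limma-voom and 4 by DESeq2. The edgeR count is near the 12.1% of all genes tested that were called higher. The gene called by edgeR, Lyve1, was higher in every HKO library than in any WT library. The 8 stellate cell markers, led by Dcn and Col3a1, summed to 517 CPM in HKO 2, 142 and 154 CPM in the other HKO libraries and 90.1 to 133 CPM in WT, and 3 of them rose by edgeR and 0 by limma-voom. The 8 Kupffer cell markers, led by Cd5l and Marco, all rose, with sums of 328, 205 and 314 CPM across HKO 1, 2 and 3 against 143 to 152 CPM in WT. HKO 2 was thus highest of all libraries for the endothelial and stellate lists and lowest of the HKO libraries for the Kupffer list. In bulk RNA, fewer dividing cells and less mitotic RNA in each cannot be told apart, and the part of these cells in the values of the 44 genes was not tested. The log2 fold changes without HKO 2 were further from 0 for 36 of the 36 genes called.

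Further marker lists follow by their ranges. Their edgeR calls are read beside the 11.2% of all genes tested that were called lower and the 12.1% called higher. Of the 8 hepatocyte markers, 3 rose (Tat, Ass1 and Cps1) and 5 did not reach the threshold. The sum, led by Alb and Apoa1, was 71412 to 72671 CPM in HKO and 75797 to 94276 CPM in WT. Most of it was Alb, with means of 51431 CPM in HKO and 69461 CPM in WT. The list's median log2 fold change was 0.37. All HKO values lay above all WT values in 5 of the 8 genes and below them in 1. Spp1 and Pkhd1, genes of bile duct cells named here after their values were seen, had log2 fold changes of -2.03 and -1.03 and passed the test in the direction of the mitotic genes, and their part in the result was not tested. B and plasma cell markers, led by Ighm and Igkc, summed to 20.2 to 27.4 CPM in HKO and 1.11 to 2.36 CPM in WT, and all 3 tested rose. Erythroid markers, led by Alas2 and Hbb-bs, summed to 69.0 to 75.9 and 53.2 to 61.3 CPM, with 3 of 4 tested higher by edgeR and 1 by limma-voom. Markers of T and NK cells, led by Cd3g and Nkg7, and of neutrophils, led by S100a9 and Elane, did not pass the filter on low counts (Cd3d, Cd8a, Ly6g, Ngp and Camp at 0 in every library, sums of at most 0.756 and 2.97 CPM).

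**Figure D5:**
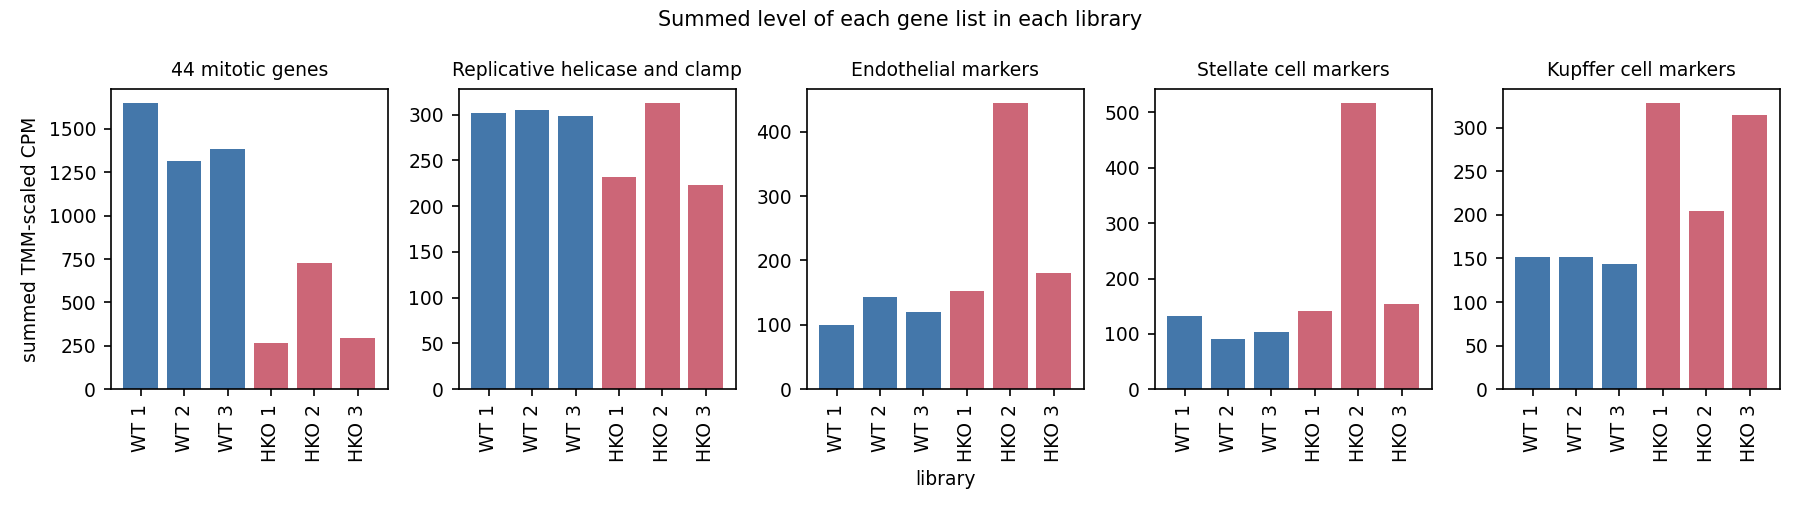
Bars give the summed CPM of 5 gene lists in each library (blue WT, red HKO), each panel on its own linear axis from 0. The 44 mitotic genes sum to 267 to 725 CPM in HKO and 1314 to 1647 CPM in WT with HKO 2 the highest HKO bar, and the endothelial and stellate bars are highest in HKO 2.

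Other genes of the same structures were read from lists of functional neighbours, beside the 11.2% of all genes tested that were called lower. All 4 genes of the chromosomal passenger complex fell, led by Birc5 (survivin) and Cdca8 with log2 fold changes of -2.01 and -1.58. Of 15 genes of cohesin and its regulators 5 fell, led by Esco2, a cohesin acetyltransferase of S phase, with -2.69 and Sgol2a, a protector of centromeric cohesin, with -2.40. Of 18 genes of the anaphase-promoting complex and its regulators 8 fell, led by the activator gene Cdc20 with -2.31 and by Ube2s, which extends ubiquitin chains, with -0.92. The 8 include Cdc23, which overlaps exons of Kif20a on the opposite strand, and reads of the overlap cannot be told apart. The number higher in these 3 lists was 0 by edgeR, at an unadjusted p below 0.05 and by DESeq2 and limma-voom, and the medians were -1.55, -0.25 and -0.43. Of 17 tested genes of the gamma-tubulin ring and augmin, which seed microtubules, 3 fell, led by Haus1 and Haus3 with -1.20 and -1.07, and the median was -0.28. By DESeq2 2 of them fell and by limma-voom 3. The edgeR count with all 6 libraries is not far from the share of all genes tested. At an unadjusted p below 0.05 by edgeR 6 were lower. Without HKO 2 edgeR called 5 lower and 0 higher, where 12.2% of all genes tested were called lower. All HKO values lay below all WT values in 7 of the 17, which held for 21.6% of all genes tested, and above them in 2. The number higher was 0 by edgeR, DESeq2 and limma-voom and 1 at an unadjusted p below 0.05.

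Genes of the general cytoskeleton are read beside the 11.2% of all genes tested that were lower and the 12.1% that were higher. Some of their counts lie near those shares, and the number of plus-end and dynein genes that rose lies above its share. Of 21 tested genes among the other kinesins and kinesin light chains 4 rose and 3 fell, with a median of 0.15. Kif21b had a log2 fold change of 1.99, and Kif24, a depolymerase of the centriole, -1.90. Both rest on low counts, with 9, 8 and 3 for Kif21b in WT 1, 2 and 3. Kif24 had 10, 12 and 15 counts in HKO 1, 2 and 3. Of 17 genes of microtubule plus ends and dynein 6 rose and 1 fell, with a median of 0.35. Gpsm2, whose protein anchors that of Numa1 at the cell cortex to orient the spindle, had -1.26 and Mapre3, a plus-end binding protein, 0.94. Of 28 genes of the actomyosin ring and abscission 4 rose and 2 fell, with a median of -0.11. The formin gene Diaph3 had -1.68 and the actin gene Actg1 1.22.

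By edgeR with all 6 libraries, genes of the helicase and clamp that copy DNA before mitosis were lower about as often as all genes tested (11.2%). Of 18 genes 2 fell, Gins3 with -1.24 and Rfc5 with -0.77, and the median was -0.46. The number lower was 6 at an unadjusted p below 0.05, 3 by DESeq2 and 3 by limma-voom. All HKO values lay below all WT values in 7 of the 18, which held for 21.6% of all genes tested. The number higher was 0 by edgeR, at an unadjusted p below 0.05 and by DESeq2 and limma-voom. Together they held 231, 313 and 223 CPM across HKO 1, 2 and 3, against 302, 305 and 298 CPM across WT 1, 2 and 3. By summed CPM HKO 2 thus stood slightly above WT in this list and below WT in the mitotic genes. Relative to the WT mean, the median gene of the list stood at -0.11 on the log2 scale in HKO 2. That of the 44 genes stood at -0.96. Without HKO 2 the list had 10 of 18 genes lower, where 12.2% of all genes tested were called lower. Its median was then -0.73, beside -2.78 for the 44 genes. The difference between the lists was not tested.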

How the data were processed

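The 6 libraries were grouped by their titles. The submitters' processing notes name HISAT2 2.0.4, StringTie 1.3.0, mm10 and GRCm38.p4, without roles or settings. The authors deposited raw counts and FPKM for 34745 genes, per the file headers. How multiply matching reads were handled is not stated in the labels. Of 226 list entries 225 were found (Kif10 was not), those whose names had turned into dates or older symbols by Ensembl identifier.

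Counts were tested in R 4.3.3 with edgeR 4.0.16 (filterByExpr, TMM, quasi-likelihood F-test, no block), with Benjamini-Hochberg adjustment over the 12556 genes kept. Each SE is the absolute log2 fold change over the square root of F. Alternatives were other scalings, no filter, DESeq2 1.42.0, limma-voom (limma 3.58.1), a replicate block and leaving out each library.

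The members, roles and lists were chosen with earlier results of these data known. Values per library are given for the 3 genes of highest mean CPM in each role (2 in the smallest), each gene not called, and those with the largest and smallest fall. In each list of neighbours up to 2 called genes with the largest change are named, and in each marker list the 2 of highest mean CPM. Some marker results are not reported here. Other values per library or ratios were chosen after they were seen. Coordinates are the deposited table's. By GENCODE M21, exons of Ube2c, Kif20a, Ncapg, Kif18a, Nusap1, Kif4, Tacc3, Prc1 and Numa1 overlap a protein-coding gene on the opposite strand, and no strand-marking step is described, so those reads cannot be told apart.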

Additional observations from a re-analysis of the deposited data

How the results depend on the processing

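The number of the 44 genes called lower was 36 with DESeq2 size factors, 36 with upper-quartile scaling and 36 with TMM leaving out mitochondrial genes. It was 37 by the DESeq2 Wald test, 39 with no filter on low counts and 40 by limma-voom. Across the 13 alternatives the number called higher was 0, and 42 of the 44 genes had a negative log2 fold change in each, Numa1 and Pttg1 being the exceptions. With 1 library left out, the number called lower ranged from 16 to 41 and the median log2 fold change from -2.78 to -1.66. Sox9 then ranged from -1.29 to -0.83 and missed the threshold without HKO 2, HKO 3, WT 2 or WT 3 (edgeR adjusted p = 0.0503, 0.0862, 0.0929 and 0.0975). The replicate numbers gave no sign of pairing: same-numbered libraries deviated from their group means with correlations of -0.00192 to 0.0717, and 1 of 3 HKO libraries correlated best with its own number. With the replicate block 40 genes were lower, the median was -2.13, and Sox9 missed the threshold (log2 fold change -1.02, edgeR adjusted p = 0.0652).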
